A study of Mus musculus with 6 samples.

Results

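The first and the last exon bin of a gene hold the reads at its outermost annotated transcription start and at its outermost annotated polyadenylation end, and were used here as a measure of promoter choice and of 3′ end choice in wt and hnRNP L deficient fetal liver progenitors. An exon bin is a stretch of exon that the same annotated transcripts share, and the bins of a unit (a gene, or overlapping genes merged into one) are numbered along the chromosome. Units of 1 gene with at least 5 bins were taken, and the lowest- and the highest-numbered bin of each was oriented by the strand of the gene, so that the first bin is the 5′ end on the plus strand and the 3′ end on the minus strand. Of 33426 terminal bins in 16713 such units, 12663 had a mean of at least 10 reads over the 5 libraries with bin counts and were kept, of 355320 exon bins in all. They comprised 5186 5′ terminal bins, 7439 3′ terminal bins and 38 bins of units whose strand the annotation did not give. At the minimum itself lay 29 5′ bins and 22 3′ bins with a mean of exactly 10 reads, such as those of Abca1 and 1700028E10Rik, while 25 and 14 bins with a mean of 9.8 reads, such as those of Ccnl1 and Cabp4, were left out. Both ends were kept in 4427 genes of known strand.

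Transcription can begin at several promoters of a gene, and each promoter gives the mRNA its own first exon. At the other end, the cleavage and polyadenylation machinery recognises the hexamer AATAAA or its variant ATTAAA a short way upstream of the site where the transcript is cut, and a gene with several such sites can make mRNAs with a short or a long 3′ UTR or, where the site lies in an intron, a truncated mRNA. hnRNP L is an RNA-binding protein with affinity for CA-rich sequences, known mostly as a regulator of alternative splicing.

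The cells were Lin- c-Kit+ fetal liver (FL) cells, a population rich in hematopoietic stem and progenitor cells, sorted from C57BL/6 embryos at E14.5. The wt group (3 libraries) was labelled hnRNPL wild-type and, in the study's own description of these reads, carried the floxed alleles (hnRNP L fl/fl), and the hnRNP L deficient group (3 libraries, labelled Knock-Out) came from VavCre+ hnRNP L fl/fl embryos, in which Cre under the Vav promoter deletes the floxed alleles in blood cells. Each library is labelled with 1 embryo number. Gene counts were used from all 6 libraries and exon bin counts from 5, with those of replicate 1 of the hnRNP L deficient group not analysed here. Reads on exon bins summed to between 102176927 and 145043938 per library.

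The targeted gene separated the groups as labelled. Hnrnpl, in CPM (gene counts scaled to library size), was at 549, 526 and 522 in the wt libraries and at 246, 289 and 271 in those labelled Knock-Out (log2 difference -1.01 ± 0.09 (SE), adjusted p = 0.00724, edgeR), with no overlap between the groups. Reads on Hnrnpl thus remained in the hnRNP L deficient libraries. Cre removes only the floxed parts of the gene, and gene counts do not separate RNA of the deleted allele from intact RNA. The paper raises the possibility that incompletely deleted cells with residual protein stayed in its analysis and made splicing changes hard to detect. Whether this bears on the terminal bins was not tested. One wt library stood apart from the rest. In wt replicate 2 the 6 granulocyte and monocyte markers Mpo, Elane, Prtn3, Ctsg, Csf1r and Fcgr3 summed to 7820 CPM, against 568 and 1447 CPM in the other wt libraries and 240 to 770 CPM across hnRNP L deficient libraries. The 5 macrophage markers summed to between 6.66 and 25.8 CPM in wt, highest in wt replicate 2, and to between 1.06 and 4.54 CPM in hnRNP L deficient libraries. Of these 6 granulocyte and monocyte markers, Csf1r alone passed as lower in hnRNP L deficient cells. The 4 stem and progenitor markers summed to between 537 and 801 CPM in wt and between 369 and 408 CPM in hnRNP L deficient libraries, and Kit, Cd34 and Flt3 passed as lower. The 4 lymphoid markers summed to between 1.00 and 6.00 CPM in wt, highest in wt replicate 2, and between 0.0630 and 0.522 CPM in hnRNP L deficient libraries; Il7r and Rag1 passed as lower and Dntt was at 0 in all 6 libraries. The 5 hepatocyte markers summed to between 103 and 221 CPM in wt and between 20.5 and 68.8 CPM in hnRNP L deficient libraries, with Ttr passing as lower. C1qa of the macrophage markers and Vwf of the megakaryocyte markers also passed as lower. Lineage depletion of FL cells used Gr1 among other antibodies but left CD11b out. In bulk RNA, fewer cells of a type and less RNA per cell cannot be told apart, and the part of the mixture of cells in the results on terminal bins was not tested; results are given with and without wt replicate 2 where their values depended on it.

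The sequences at the annotated 3′ ends of the genes described most fully are shown first, because the 3′ terminal bin is the stretch between an inner and an outer end. The windows of 30 bases were read from GENCODE M21 transcripts (GRCm38), 5′ to 3′ on the strand of the gene, with the hexamer in capitals; each closes at the transcript's end, except that of the H13 inner end, which was moved upstream to hold the hexamer. H13 lies on the plus strand of chromosome 2, and its last bin, chr2:152705037-152708670, runs from the 3′ end of transcript H13-202 to that of H13-204. Pdcd6ip (last bin chr9:113651744-113654471) and Cep97 (last bin chr16:55899888-55904950) lie on the minus strand, as does Dap3 on chromosome 3.
H13 inner end, chr2:152704997-152705026: ATTAAAaactcatcccatggccgctaggcc
H13 outer end, chr2:152708641-152708670: agactaggattacaagaaactttctctgtg
Pdcd6ip inner end, chr9:113654472-113654501: aatttaaaAATAAAttacttacgaacagtt
Pdcd6ip outer end, chr9:113651744-113651773: atcctagaAATAAAagttgaaagattctta
Cep97 end of the short transcript Cep97-205, chr16:55924556-55924585: aatatataaatAATAAAatctaaaccaaaa
Cep97 end of the short transcript Cep97-204, chr16:55924368-55924397: accagctgtcccAATAAAtgctaagaaaat
Cep97 outer end, chr16:55899888-55899917: tctaatttgaAATAAAagctttatacattt
Dap3 outer end, chr3:88920803-88920832: ctgtttcaaaAATAAAattatatgtgtgtg
Srsf1 inner end, chr11:88051461-88051490: ctttgaaaaaAATAAAcattttttaaaaaa
Srsf1 outer end, chr11:88053726-88053755: gtgAATAAAaagctgttaatttggaacctt
Pdcd6ip and Srsf1 held a hexamer within the last 40 bases at both ends, whereas H13 held one at the inner end and none at the outer end. The last bin of Cep97 had one at both ends too. These were ATTAAA at its inner end, that of Cep97-203, which is not printed here, and AATAAA at the outer end.

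Coordinates could be given to a bin only where the GENCODE M21 gene, cut in the same way, gave as many bins as were deposited, which was the case in 3832 of the 8223 units with a kept terminal bin; since the annotation release behind the counts is not given in the sources used here, these coordinates are inferred. Of 3163 tested 3′ bins with coordinates, 1872 were contiguous with the bin before them, so that they were the distal part of a longer exon, and 1291 were separate from it. At the outer end, 2465 (77.9%) held AATAAA or ATTAAA on the sense strand within the last 40 bases. At the inner end of the contiguous bins, the hexamer was found in 555 (30.1%) of the 1843 at which an annotated transcript ended.

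Usage, the reads on a bin relative to all reads on its unit, was compared between the hnRNP L deficient and wt libraries with edgeR's diffSpliceDGE on all 176996 testable bins. At an adjusted p under 0.05, 3 of 7082 tested 3′ terminal bins passed, those of H13 and Cep97 being lower and that of Dap3 higher in the hnRNP L deficient libraries, and 0 of 5177 tested 5′ terminal bins passed. Over all bins, 0.0288% passed, 0.0102% being lower and 0.0186% higher, against 0.0424% of the 3′ terminal bins. At an unadjusted p under 0.05 lay 169 3′ bins (2.39%) and 62 5′ bins (1.20%), against 1.02% of all bins. The study listed genes with an exon changed more than 2-fold in usage, a p under 0.01 from DEXSeq and at least 10 reads. It does not say whether that p was adjusted, and H13, Cep97 and Dap3 are not on its list. Here these thresholds of p and change were applied to edgeR's unadjusted p from 3 against 2 libraries. By them, 24 3′ bins were lower (0.339%, against 0.0921% of all bins) and 11 were higher (0.155%, against 0.154%). At 5′ ends 7 bins were lower and 10 higher. The number of calls depended on the test. With limma's diffSplice, 46 3′ bins were lower and 6 higher and 2 5′ bins were higher, where 0.0537% of all bins were lower and 0.0706% higher. With DEXSeq's model fitted in DESeq2, 56 3′ bins were lower and 14 higher, and 6 5′ bins were lower and 9 higher, where 0.136% of all bins were lower and 0.18% higher.

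The last bin of H13, the gene of signal peptide peptidase, an intramembrane protease of the endoplasmic reticulum, carried 5.90%, 9.41% and 7.38% of the unit's reads in wt replicates 1 to 3 and 2.96% and 2.14% in hnRNP L deficient replicates 2 and 3. The groups did not overlap, and usage was lower by a log2 change of -1.61 ± 0.23 (SE; adjusted p = 3.99e-05, edgeR). Immediately upstream, bin 21, which ends at the inner polyadenylation end printed above, held 13.7%, 14.9% and 11.8% of the reads in wt and 13.2% and 12.4% in hnRNP L deficient libraries, which overlapped (log2 change -0.08). The last bin spans the 3634 bases beyond that end. H13 as a whole did not pass the test on gene counts, with 93.1, 123 and 104 CPM in wt and 96.9, 95.1 and 96.7 CPM across hnRNP L deficient replicates 1 to 3 (adjusted p = 0.273). Without wt replicate 2, the library with the largest share, the change was -1.39 and the bin still passed.

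Cep97 encodes a centrosomal protein that caps the mother centriole together with CP110 and holds back the growth of primary cilia. Its 3′ terminal bin, 5063 bases of the last exon, held 34.8%, 45.5% and 34.7% of the unit's reads in wt and 15.8% and 14.3% in hnRNP L deficient libraries, a log2 change of -1.33 ± 0.23 (SE; adjusted p = 0.00176, edgeR). Differences were also found in the rest of the gene. Bins 1 to 9, the 3′ part of the gene, had 18.8, 18.6 and 21.7 CPM of bin reads in wt and 13.4 and 11.9 CPM in hnRNP L deficient libraries, or 0.643 times the wt mean. The 5′ part, bins 15 to 24, had 3.54, 3.01 and 4.84 CPM in wt and 17.1 and 17.2 CPM in hnRNP L deficient libraries, or 4.51 times. Between these parts lie bins 11 to 14, in which the short transcripts Cep97-204 and Cep97-205 end, and these had 0.609, 0.753 and 1.25 CPM in wt and 4.22 and 4.08 CPM in hnRNP L deficient libraries.

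Bin 12 of Cep97, chr16:55924556-55924679, which reaches the 3′ end of Cep97-205, held 28, 47 and 60 reads in wt and 320 and 379 reads in hnRNP L deficient libraries (log2 usage change 2.28, adjusted p = 9.3e-05). Bins 15, 16 and 17, upstream of it, rose by 1.66, 1.74 and 1.63 on the log2 scale of usage, with adjusted p of 0.00298, 6.3e-05 and 0.00151. The bin next to the 5′ end, bin 23, rose from 0, 0 and 1 reads in wt to 36 and 18 reads (adjusted p = 0.00542), whereas the 5′ terminal bin of 1 base had a maximum of 3 reads and was under the minimum. Each of these bins was higher in both hnRNP L deficient libraries than in all 3 wt libraries. Of the 24 bins of the unit, 6 passed: the 5 that were higher lie at or upstream of the ends of the short transcripts, and the 1 that was lower is the 3′ terminal bin. Cep97 as a whole stood at 32.0, 29.6 and 36.8 CPM in wt and 36.3, 39.3 and 37.5 CPM in hnRNP L deficient libraries on the gene counts and did not pass (adjusted p = 0.246).

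**Figure D1:**
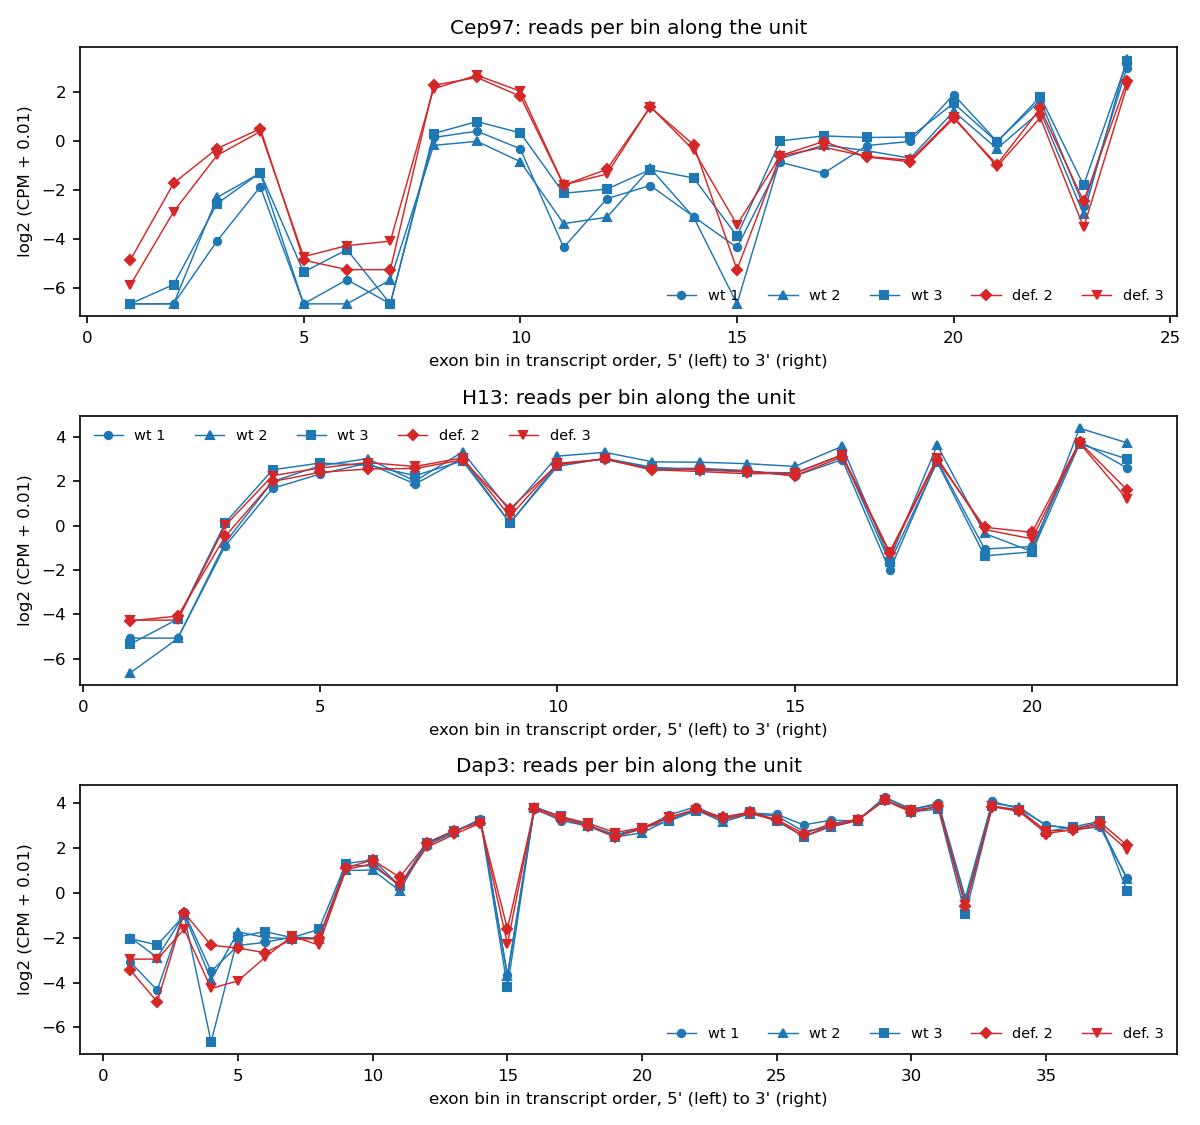
Reads per exon bin (log2 of CPM + 0.01, y axis) of Cep97, H13 and Dap3 in each of the 5 libraries, with bins in transcript order from 5′ to 3′ (x axis); blue, wt; red, hnRNP L deficient (def.). In Cep97 both hnRNP L deficient libraries lie below wt in the last bin; in H13 they lie below and in Dap3 above wt in the last bin. Bin 7 of H13, picked after its values were seen, also separates the groups, with 373, 417 and 655 reads in wt and 730 and 907 reads in hnRNP L deficient libraries, and was not called (log2 usage change 0.74, unadjusted p = 0.00408, adjusted p close to 1).

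Dap3, which encodes a GTP-binding protein of the small mitochondrial ribosomal subunit, had the 1 3′ terminal bin called as higher by the main test with all libraries. Bin 1 of 38 held 161, 158 and 145 reads in wt and 531 and 541 reads in hnRNP L deficient libraries, or 0.606%, 0.602% and 0.427% against 1.74% and 1.53% of the unit. The log2 usage change was 1.58 ± 0.16 (SE; adjusted p = 0.00261, edgeR), and the bin before it changed by 0.04. The number of bins of Dap3 differed between GENCODE M21 and the deposited counts, so the bin has no coordinates here; in M21 the outermost 3′ end of the gene, at 88920803 on chromosome 3, belongs to Dap3-201, and the next one inward, at 88923635, to Dap3-202. Dap3 as a whole did not pass (adjusted p = 0.806). When either hnRNP L deficient library was left out, none of the 3 bins passed; with 1 library left in that group the spread came from the wt libraries alone.

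The next bins in order of p did not pass with all 5 libraries, and their values are given as description. Hsp90aa1, the stress-inducible cytosolic chaperone, had 0.156%, 0.183% and 0.163% of its reads in the last 423 bases in wt and 0.446% and 0.463% in hnRNP L deficient libraries (log2 change 1.46, adjusted p = 0.0632). The last bin of Dnase2a, the lysosomal nuclease that degrades the nuclei expelled by erythroblasts, held 3.80%, 2.45% and 2.88% against 9.44% and 11.8% (1.87, adjusted p = 0.0741); it belongs to the noncoding transcript Dnase2a-207 alone, which begins beyond the ends of the coding transcripts, and the bin before it changed by 1.85 in the same direction. For Dnajc19, a co-chaperone of the mitochondrial import motor, the shares were 1.73%, 1.52% and 1.36% against 3.90% and 4.77% (1.49, adjusted p = 0.117). All 3 were higher in both hnRNP L deficient libraries than in any wt library. Without wt replicate 2 the bins of Hsp90aa1, Dnase2a and Dnajc19 passed the main test (adjusted p = 0.00608, 6.0e-05 and 0.00102, edgeR).

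Pdcd6ip encodes ALIX, which acts with the ESCRT machinery in membrane scission. Its last bin of 2728 bases held 8.50%, 12.4% and 8.86% of the reads in wt and 5.04% and 4.82% in hnRNP L deficient libraries (log2 change -1.02 ± 0.15, adjusted p = 0.103), while the bin before it, which ends at the inner hexamer printed above, changed by 0.16 in the other direction. Tnik, a kinase of the Wnt pathway, had 3.46%, 7.27% and 5.40% against 1.61% and 1.66% (-1.71 ± 0.31, adjusted p = 0.131). Neither gene had overlapping groups in its last bin, and in both the largest share was that of wt replicate 2. Without that library the bins of Pdcd6ip and Tnik passed the main test (adjusted p = 0.0017 and 0.0347, edgeR).

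**Figure D2:**
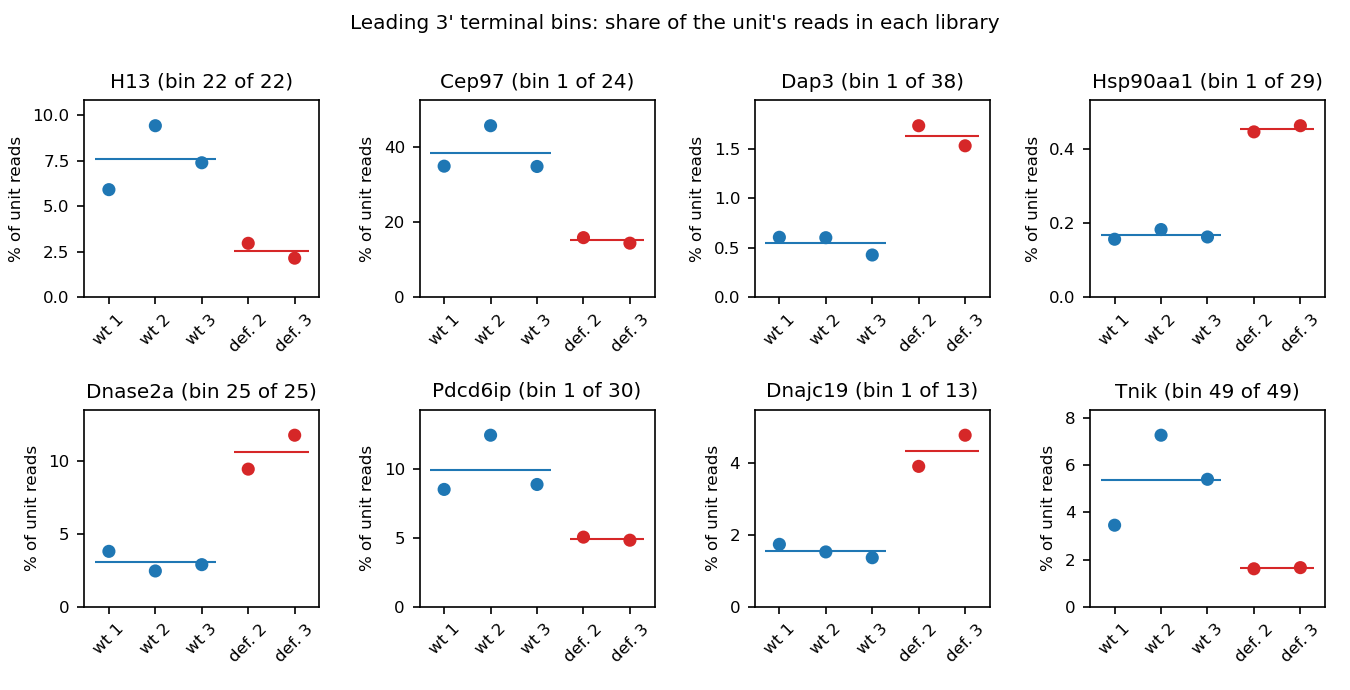
Share of the unit's reads (y axis, %) in the 8 leading 3′ terminal bins for each library (x axis; blue, wt; red, hnRNP L deficient), with lines at the group means. The groups do not overlap in any of the 8 panels, which is a description, since the bins were picked by p from these values. Over all tested 3′ bins, both hnRNP L deficient libraries lay below wt in 20.7% and above in 4.76%. Only H13, Cep97 and Dap3 passed the adjusted threshold with all libraries.

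Both limma and DEXSeq's model called 31 3′ terminal bins, including the 3 above, of which 26 were lower and 5 higher in hnRNP L deficient libraries, with log2 changes from -1.71 to -0.56 and from 1.02 to 1.87 in the main fit. Both tests used the same counts, so a call by both is not independent evidence. The share of all bins called by both tests was not determined. Over all tested 3′ bins, 75.4% had a change below 0 with all libraries and 53.3% without wt replicate 2. Of these 31, 16 also passed the main test without wt replicate 2 (13 lower and 3 higher), and all 31 kept their sign there. Pxmp4, a gene on the study's list of exon usage changes, had 1 of the lower bins. Its shares were 60.9%, 62.7% and 61.3% in wt and 34.7% and 26.1% in hnRNP L deficient libraries (log2 change -1.04). The main test with all libraries did not call it (adjusted p = 0.941, edgeR). Which exon of Pxmp4 the study's list refers to is not given. Of the 26 lower bins, 3 belong to genes of the lists of regulators and factors fixed for this report. They are those of Srsf1, a splicing factor, Hnrnpd, and Fip1l1, a subunit of the cleavage and polyadenylation complex. Each of these lists had 19 tested 3′ bins, and the 26 lower bins came from 7082 tested 3′ bins. Whether the lists differ from other genes was not tested. Without wt replicate 2, the main test called the bin of Hnrnpd (adjusted p = 0.0243, edgeR). It did not call those of Srsf1 and Fip1l1 (adjusted p = 0.520 and 0.278).

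The last bin of Srsf1 held 8.19%, 8.91% and 8.01% of its reads in wt and 5.60% and 5.50% in hnRNP L deficient libraries (log2 change -0.59). For Hnrnpd, also called AUF1, an AU-rich element binding protein, the shares were 0.552%, 0.533% and 0.638% against 0.282% and 0.265% (-1.06). For Fip1l1 they were 11.3%, 14.5% and 11.4% against 7.57% and 7.18% (-0.75). Both hnRNP L deficient libraries lay below every wt library in each of the 3. Ribosomal protein genes, Hsp90aa1 and Tmsb10 have near-identical pseudogene copies, and how reads of near-identical copies were assigned is not known for their bins.

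Of the 31 bins, 16 had coordinates, and 14 of these were contiguous with the bin before them. Their widths ran from 515 to 9755 bases, and 14 of the 16 spanned at least 1000 bases. The inner end held a hexamer within its last 40 bases in 11 of the 14 contiguous bins (78.6%), against 30.1% of all contiguous 3′ bins, and the outer end did in 13 of 16 (81.2%), against 77.9%. This is a description, since the bins were chosen by their usage. In the last 300 bases before the outer end, ACACAC or CACACA on the sense strand (repeats that overlap each other) was present in 3 of the 16 (18.8%), against 13.5% of the 2532 3′ bins of at least that length, and on either strand in 6 (37.5%), against 35.2%. Of the 28 bins next to the 31 that could be tested, 15 changed by less than 0.25 on the log2 scale, and 6 had an unadjusted p under 0.05. On gene counts, 3 of the 31 genes were higher and 3 lower, where 9.32% of all genes tested were higher and 9.85% lower.

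**Figure D3:**
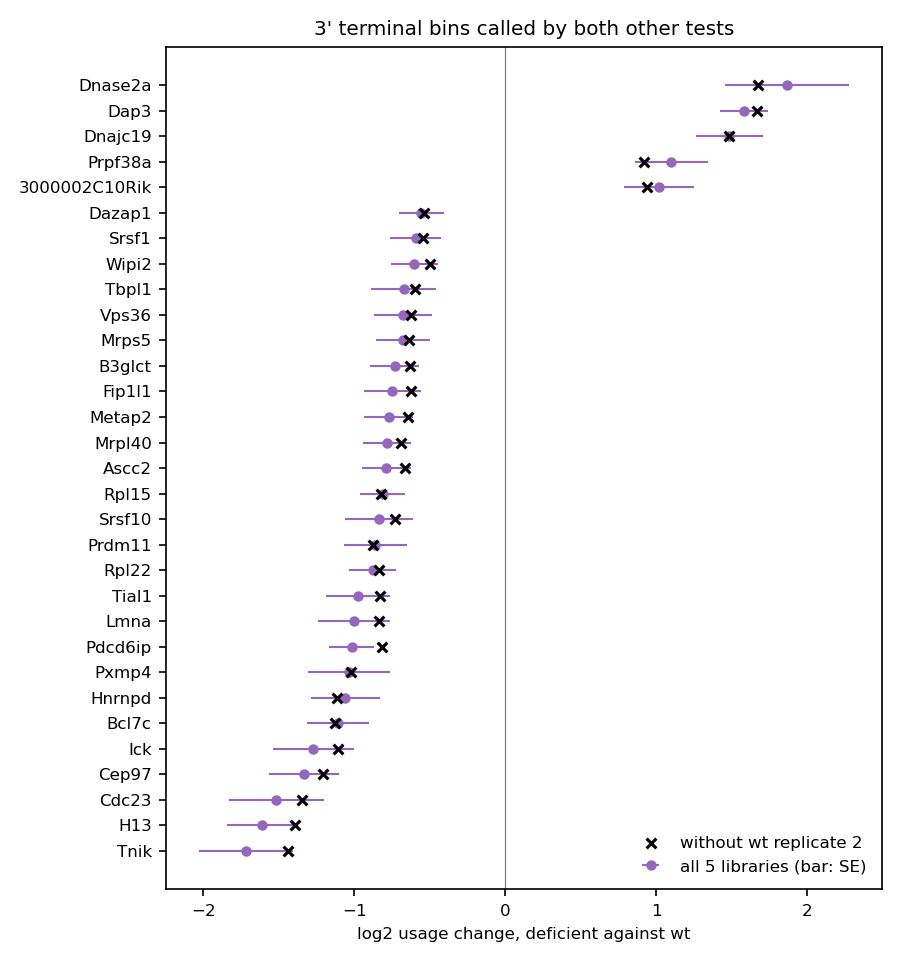
Log2 usage change (x axis; hnRNP L deficient against wt, from edgeR's diffSpliceDGE) of the 31 3′ terminal bins called by both limma and DEXSeq's model, with SE bars for all 5 libraries and crosses for the fit without wt replicate 2. In the fit shown 26 bins lie below 0 and 5 above, on the same side with and without that library.

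Across all 3′ terminal bins, usage was slightly lower in hnRNP L deficient libraries, with a median log2 change of -0.08 (75.4% of bins below 0), and across all 5′ terminal bins slightly higher, with a median of 0.11 (32.6% below 0). This shift was measured on both strands alike, with medians of -0.09 and -0.08 at 3′ ends and 0.11 and 0.10 at 5′ ends of plus and minus strand genes. Without wt replicate 2, the medians were -0.01 (53.3% below 0) and 0.02 (46.5% below 0). In 4427 genes with both ends, the median 3′ bin had 7.62, 10.4 and 7.16 times as many reads as the 5′ bin in wt replicates 1 to 3 and 7.07 and 6.93 times in hnRNP L deficient replicates 2 and 3. On the log2 scale this balance was 3.05 ± 0.29 (SD, n = 3) in wt and 2.81 ± 0.02 (SD, n = 2) in hnRNP L deficient libraries, a difference of -0.24 (exact two-sided permutation test, p = 0.2, the smallest that 3 against 2 libraries allow), and -0.08 without wt replicate 2. The granulocyte and monocyte markers were also highest in wt replicate 2. RNA integrity and coverage along transcripts can differ between libraries too, and would move all terminal bins together. The paper states that RNA integrity was checked and gives no value per library. The part of the mixture of cells, of RNA integrity or of coverage in the balance was not tested.

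The share of a unit's reads in the 3′ terminal bin lay below all wt libraries in 1467 3′ bins (20.7%, against 8.22% of all bins) and above them in 337 (4.76%, against 12.1%). At 5′ ends the counts were 228 (4.40%) and 866 (16.7%). In 55.7% of the 4427 genes the 5′ end was higher and the 3′ end lower, and in 9.19% the reverse; without wt replicate 2 these shares were 31.4% and 24.4%. The bins of Dap3, H13 and Cep97 passed with and without that library. Without wt replicate 2 the main test called 15 3′ bins as lower and 6 as higher, where 0.0277% of all bins were lower and 0.0593% higher, and 1 5′ bin as higher.

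**Figure D4:**
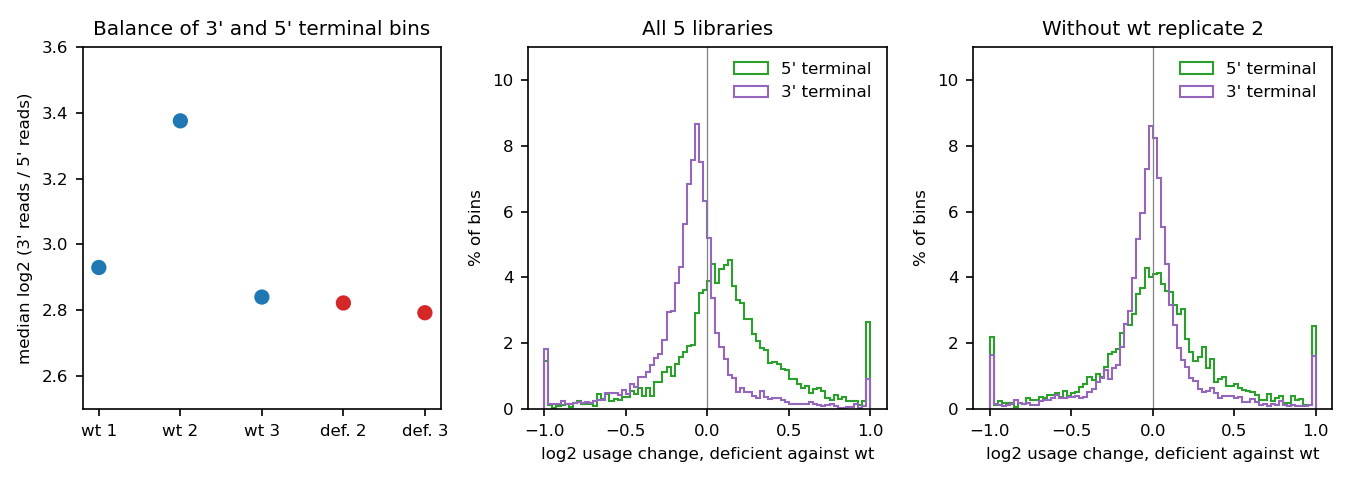
Left, median over 4427 genes of the log2 ratio of reads on the 3′ and the 5′ terminal bin in each library (blue, wt; red, hnRNP L deficient); middle and right, distribution (% of bins, y axis) of the log2 usage change of 5′ and 3′ terminal bins with all 5 libraries and without wt replicate 2, values beyond ±1 being drawn at ±1. wt replicate 2 is the highest at 3.38, and the distributions lie nearer to each other without it.

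Contiguous 3′ bins had a median change of -0.11 and separate ones of -0.07, or -0.03 and -0.00385 without wt replicate 2. Under the thresholds of the study, 13 of 1872 contiguous bins were lower and 3 higher, and of 1291 separate bins 1 was lower and 2 higher. The 3′ bins of under 100 bases had the widest spread, with 85.5% within 2-fold, against 98.4% of those of 1000 bases or more, and also the fewest reads, with a median of 26.2 against 993. In 425 3′ bins and 233 5′ bins with coordinates, an exon of another gene overlapped the bin, and reads there cannot be assigned with certainty.

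No 5′ terminal bin passed, and the 8 with the smallest p are described. Rps18, of the small ribosomal subunit, had 0.137%, 0.106% and 0.0545% of its reads in the 5′ terminal bin in wt and 0.0261% and 0.0312% in hnRNP L deficient libraries (log2 change -1.79 ± 0.39, adjusted p = 0.108), but this bin, chr17:33955846-33956001, overlaps an exon of Vps52 on the opposite strand. The 5′ bin of Ndufa13, a subunit of mitochondrial complex I, overlaps Tssk6 in the same manner, and its share was 2.65%, 3.51% and 3.87% against 1.70% and 1.33% (-1.16, adjusted p = 0.754). Both were lower in each hnRNP L deficient library. Reads of opposite-strand neighbours can be told apart only if the counting used strand, which is not given in the sources used here.

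Limma and DEXSeq's model agreed on the 5′ bins of Rpl29 and Tmem9 as higher. Rpl29, of the large ribosomal subunit, had 1.32%, 0.936% and 1.29% against 2.25% and 2.19% (log2 change 0.91 ± 0.15; adjusted p = 0.374 in the main test, 0.0455 with limma). Tmem9, a transmembrane protein of lysosomes, had 11, 6 and 10 reads in wt and 58 and 63 reads in hnRNP L deficient libraries, or 0.204%, 0.113% and 0.126% against 0.663% and 0.603% (2.09 ± 0.33; adjusted p close to 1 in the main test, 0.0126 with limma). In both genes the groups did not overlap. Tmem9 was also the only gene of the 16 leading bins that passed on gene counts, at 51.5, 46.5 and 57.6 CPM in wt and 76.3, 71.4 and 72.2 CPM across hnRNP L deficient replicates 1 to 3 (log2 difference 0.48 ± 0.09, adjusted p = 0.0208).

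Ccnd3 encodes cyclin D3, which drives G1 progression in blood cells and has an upstream promoter far from its main one. RefSeq places its starts at 47505051 and 47593467 on chromosome 17, 88416 bases apart, and the outer start coincides with the outer edge of the gene in GENCODE M21. The 5′ terminal bin held 44, 56 and 65 reads in wt and 16 and 24 reads in hnRNP L deficient libraries, or 0.370%, 0.356% and 0.369% against 0.0877% and 0.116% of the unit. The next bin moved alike, with 36, 50 and 42 reads in wt and 19 and 30 reads in hnRNP L deficient libraries. The main test did not call the 5′ bin (log2 change -1.83 ± 0.37; adjusted p close to 1), whereas DEXSeq's model did (adjusted p = 7.87e-06). Ccnd3 as a whole did not pass (adjusted p = 0.170).

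Trak1, an adaptor that links mitochondria to kinesin, had 0, 8 and 0 reads on its 5′ terminal bin in wt and 33 and 13 reads in hnRNP L deficient libraries. This was the 1 5′ bin that passed without wt replicate 2, where both remaining wt libraries were at 0, and with all libraries it did not (log2 change 3.00 ± 0.70, adjusted p = 0.521). Its outermost RefSeq start, at 121297502 on chromosome 9, also coincides with the edge of the gene and lies 69456 bases upstream of the next one. The promoter windows of both outer starts, 250 bases before to 50 after the start on GRCm38.p6 (RefSeq, plus strand), are given here because each outer start lies at the edge of its gene, where the 5′ terminal bin should begin, although these bins themselves have no coordinates here. The 50 transcribed bases are in capitals.
Ccnd3 outer promoter, chr17:47504801-47505100: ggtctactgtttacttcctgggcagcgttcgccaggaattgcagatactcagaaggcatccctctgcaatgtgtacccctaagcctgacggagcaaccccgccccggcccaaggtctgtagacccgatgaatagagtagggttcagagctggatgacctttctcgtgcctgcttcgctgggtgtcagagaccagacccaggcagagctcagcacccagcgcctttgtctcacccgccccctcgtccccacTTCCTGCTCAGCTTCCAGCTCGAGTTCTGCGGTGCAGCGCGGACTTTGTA
Trak1 outer promoter, chr9:121297252-121297551: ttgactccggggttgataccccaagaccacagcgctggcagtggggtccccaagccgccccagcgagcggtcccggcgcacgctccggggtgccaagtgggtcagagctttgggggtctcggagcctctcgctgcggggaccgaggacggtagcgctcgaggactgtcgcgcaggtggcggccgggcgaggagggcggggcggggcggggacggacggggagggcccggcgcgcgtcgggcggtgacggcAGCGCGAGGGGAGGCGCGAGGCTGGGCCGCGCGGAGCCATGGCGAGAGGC
Neither held TATAAA or CCAAT on either strand, which were present in 13.6% and 37.4% of the 32817 RefSeq promoter windows of this length; the inner promoter of Ccnd3 held CCAAT.

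The remaining leading 5′ bins rested on few reads or varied within wt. Tmsb10, the actin-binding thymosin beta 10, had 1.25%, 1.93% and 0.290% in wt and 0.174% and 0.269% in hnRNP L deficient libraries, so wt replicate 3 lay close to the other group. Ccser2 had 0.201%, 0.0986% and 0.682% against 2.96% and 1.13%, again with a wide spread in both groups.

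**Figure D5:**
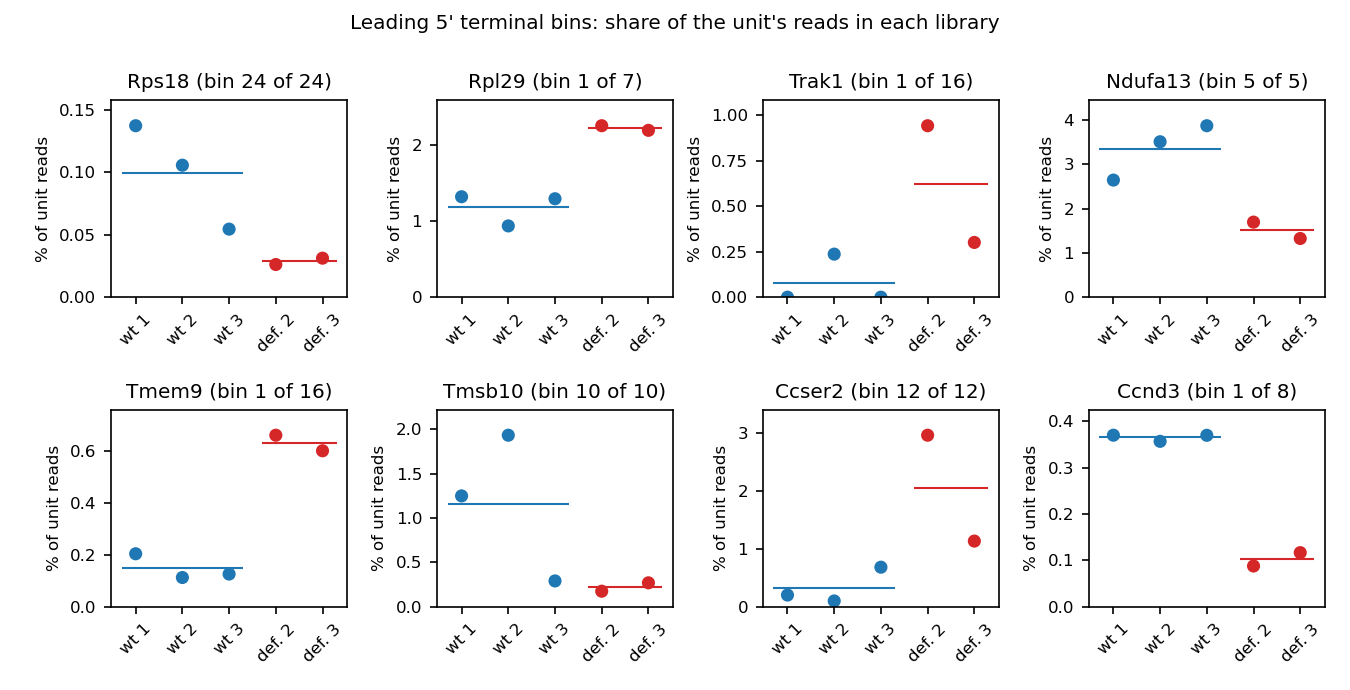
Share of the unit's reads (y axis, %) in the 8 leading 5′ terminal bins for each library (x axis; blue, wt; red, hnRNP L deficient), with lines at the group means. The groups do not overlap in these panels, which is a description, since the bins were picked by p from these values. Over all tested 5′ bins, both hnRNP L deficient libraries lay below wt in 4.40% and above in 16.7%. None of the bins shown passed the adjusted threshold with all libraries.

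The lists of genes chosen for their known use of alternative ends contained no terminal bin called by the main test, by limma or by DEXSeq's model. Of 20 genes with textbook alternative promoters, 8 had a tested 5′ bin, with a median log2 change of 0.00361 against 0.11 over all 5′ bins, and 14 a tested 3′ bin, with a median of -0.15 against -0.08. Runx1, the transcription factor needed for the emergence of HSCs, has a distal and a proximal promoter, and its 5′ terminal bin held 4.49%, 1.80% and 1.77% in wt and 4.50% and 3.48% in hnRNP L deficient libraries, which overlapped (log2 change 0.66 ± 0.31, unadjusted p = 0.0734). Ikzf1, which encodes Ikaros, had 1.49%, 0.889% and 1.63% against 1.63% and 1.69% at its 5′ end. At 3′ ends, Lmo2 and Abl1 had the smallest unadjusted p of this list, 0.0277 and 0.0476, with changes of 1.63 and -1.26 on few reads.

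Of 20 genes with textbook alternative polyadenylation, 14 had a tested 3′ bin, and all 14 had a change below 0, from -0.54 to -0.02 with a median of -0.09, near the median of all 3′ bins, and 0 passed. Dicer1, the nuclease that makes microRNAs, had 18.7%, 24.1% and 18.9% in wt and 15.7% and 15.3% in hnRNP L deficient libraries. Fndc3b had a wt mean of 45.8% ± 5.95 (SD, n = 3) against 33.2% and 32.6%. Both were highest in wt replicate 2. Their 5′ bins, 12 of which were tested, had a median of 0.10, with Rac1 and Hmgn1 at 0.45 and 0.14.

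Among 25 p53 target genes, a list chosen with earlier results of these data known, 17 had a tested 3′ bin and 12 a tested 5′ bin, with median changes of -0.07 and 0.16, and none passed the main test. On gene counts 16 of the 24 tested members were higher and 1, Sesn1, lower (log2 difference -0.75, adjusted p = 0.0110), where 9.32% of all genes were higher and 9.85% lower. Cdkn1a, the cell cycle inhibitor p21, had 58.2%, 60.1% and 53.8% of its reads in the last bin in wt and 52.1% and 52.5% in hnRNP L deficient libraries (log2 change -0.15). Fas, which encodes the death receptor CD95, had 2, 32 and 5 reads in its last bin in wt and 82 and 151 reads in hnRNP L deficient libraries (usage change -0.94 ± 0.70); Tnfrsf10b, which encodes TrailR2, had 40.5%, 51.0% and 56.5% against 39.9% and 44.9% (-0.17 ± 0.41). Aen, an apoptosis-enhancing nuclease, had 14.8%, 16.3% and 15.9% against 20.7% and 20.8% (0.41 ± 0.24, unadjusted p = 0.0897); the Aen 3' bin was called by DEXSeq's model (adjusted p = 0.0266) and not by limma (adjusted p = 1). At the 5′ end Plk2 was at 3.70%, 0% and 0% against 7.79% and 7.71%, on few reads in wt.

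Of the 27 hnRNP and other splicing regulators, 19 had a tested 3′ bin and 20 a tested 5′ bin, and 0 passed the main test with all libraries. The smallest p at 3′ ends were those of Hnrnpd and Srsf1, whose shares are given above. The Hnrnpd 3' bin was called by limma (adjusted p = 0.0223) and DEXSeq's model (adjusted p = 2.17e-07), and by the main test without wt replicate 2. The Srsf1 3' bin was called by limma (adjusted p = 0.0193) and DEXSeq's model (adjusted p = 2.04e-05). The last 17 bases of Hnrnpl itself held 0.111%, 0.104% and 0.192% in wt and 0.202% and 0.133% in hnRNP L deficient libraries, and the last bin of its paralog Hnrnpll 10.9%, 12.5% and 12.3% against 12.1% and 11.7%, both with overlapping groups. At 5′ ends, Hnrnph1 and Tra2b had the smallest unadjusted p, 0.184 and 0.203, with overlapping groups. The terminal bins of Trp53 (5′ end, log2 change -0.08 ± 0.21), Ptprc, the gene of CD45 (-0.17 ± 0.47 at the 3′ and 1.11 ± 1.19 at the 5′ end), Nudt21 (-0.21 and 0.13) and Pcf11 (-0.24 and 0.09) also did not pass.

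Factors of 3′ end processing were measured beside the terminal bins, in a list that also held proteins of the Integrator complex and of the U1 small nuclear ribonucleoprotein. The list had 27 symbols for 26 genes, since Cpsf3l is an older symbol of Ints11. All 26 were tested on the gene counts of all 6 libraries. Of these, 5 were higher in hnRNP L deficient cells (adjusted p under 0.05, edgeR's quasi-likelihood test) and 0 lower, against 9.32% and 9.85% of all genes. The median log2 difference of the list was 0.18, against -0.03 over all genes. Cstf2, the subunit of the cleavage stimulation factor CstF that binds the GU-rich downstream element, stood at 191, 145 and 169 CPM in wt and 233, 218 and 222 CPM across hnRNP L deficient replicates 1 to 3 (log2 difference 0.39 ± 0.10, adjusted p = 0.0430). Cstf3 of the same complex stood at 81.5, 71.1 and 66.8 CPM against 90.1, 92.8 and 91.7 CPM (0.30 ± 0.09, adjusted p = 0.0499). The groups did not overlap in either. The count of 5 depended on single libraries: without wt replicate 1 it was 11, and without wt replicate 3 or any 1 of the hnRNP L deficient libraries it was 0.

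The others that rose were Cpsf4 (0.30 ± 0.07), a subunit that binds the polyadenylation signal, Ints11 (0.31 ± 0.06), the endonuclease of the Integrator complex that processes small nuclear RNAs, and Snrpa (0.32 ± 0.09), a protein of the U1 small nuclear ribonucleoprotein. Nudt21, the small subunit of cleavage factor I, known for its effect on the choice of polyadenylation site, stood at 99.4, 83.8 and 85.3 CPM in wt and 90.5, 92.2 and 94.2 CPM in hnRNP L deficient libraries (0.02 ± 0.08, adjusted p = 0.874). At their own ends, none passed the main test, and 1, the Fip1l1 3' bin, was called by limma (adjusted p = 0.0030) and DEXSeq's model (adjusted p = 0.0179). At 3′ ends 18 of 19 tested bins had a change below 0, with a median of -0.11 against -0.08 over all 3′ bins, and at 5′ ends 1 of 15, with a median of 0.16 against 0.11. The last bin of Cpsf6 held 23.1%, 27.1% and 22.5% in wt and 19.2% and 18.3% in hnRNP L deficient libraries (-0.37 ± 0.19), and that of Cstf3 11.4%, 12.04% and 10.5% against 11.3% and 10.9% (-0.03 ± 0.15). Whether the levels of these factors bear on the terminal bins was not tested.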

How the data were processed

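RNA from sorted Lin- c-Kit+ FL cells was sequenced as TruSeq Stranded mRNA libraries, paired-end, and aligned by the authors with TopHat2 2.0.10 to GRCm38. The deposited values were raw read counts, per gene (6 libraries, made by the authors with HTSeq) and per exon bin (5 libraries, made by the authors with DEXSeq's counting script); the Ensembl release and the strand setting are not given in the sources used here. Rows that name no bin or gene were left out of library sizes; they held between 31.7% and 37.4% of the bin files' reads and between 46.7% and 53.3% of the gene files' reads. Samples were grouped by their genotype label.

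Bins whose mean reached 10 reads were normalized by TMM and tested with diffSpliceDGE in edgeR 4.0.16 (R 4.3.3), adjusted by the Benjamini-Hochberg method over all 176996 testable bins; SEs were derived from the change and its F statistic. Gene counts were tested with edgeR's quasi-likelihood test. Limma 3.58.1 diffSplice, DEXSeq's model in DESeq2 1.42.0, other filters and normalizations, other denominators and leaving out each library were alternatives. Every script that tests many bins was tested on simulated data. Strand, symbols and transcripts came from GENCODE M21 and promoters from RefSeq. The direction of numbering was checked on the widths of bins: their rank correlation with reads had a median of 0.45 on both strands as numbered and was negative with the numbering reversed. Named bins were those passing and the next in order of p up to 8 at each end, 12 fixed genes, and the 2 members of each list with the smallest p. Other bins described were chosen after their values were seen. The members and lists were chosen with earlier results of these data known. Each library is labelled with 1 embryo number. Intervals and errors cover the spread between these libraries only.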

Additional observations from a re-analysis of the deposited data

How the results depend on the processing

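At 5′ ends, where 0 bins passed with all libraries, 17 passed under the thresholds of the study, 1 with a minimum mean of 5 reads, 2 with limma, 1 with limma after the median of each end was taken out of each library, 15 with DEXSeq's model and 27 with DEXSeq's model without wt replicate 2; leaving out 1 library gave 0 to 1. At 3′ ends, against 3, the same settings gave 35 (thresholds of the study), 52, 36, 70 and 78, and leaving out 1 library gave 0 to 21: 8 without wt replicate 1, 21 without wt replicate 2 and 0 without either hnRNP L deficient library. The settings with the end medians taken out and with DEXSeq's model without wt replicate 2 were chosen after seeing the data. For internal bins the count of 33 ran from 4 to 102, for the 3′ end processing factors the count of 5 from 0 to 11, and for the genes of the named bins the count of 1 from 0 to 3 when 1 library was left out, with 2 in DESeq2. The balance of 3′ and 5′ bins kept its direction under every alternative run, from -0.35 to -0.08 when 1 library was left out.

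Of 919 values of 52 named bins under alternatives, 834 kept direction and side of the threshold, 57 passed where the main test did not, 7 no longer passed and 21 changed sign, none of them called. With 1 library left out, those that changed sign ran from -0.0146 to 0.649 (Hnrnpl 3' bin), from -0.692 to 0.0236 (Tnfrsf10b 5' bin), from -0.0639 to 0.0334 (Hnrnpll 3' bin), from -0.189 to 0.0543 (Hnrnpll 5' bin), from -0.263 to 0.0428 (Ptprc 3' bin), from -0.0983 to 0.170 (Cstf3 5' bin), from -0.0778 to 0.0176 (Cstf3 3' bin) and from -0.0153 to 0.204 (Pcf11 5' bin). With the end medians taken out they were 0.103 (Hnrnpll 3' bin), -0.0268 (Cstf3 5' bin), 0.0881 (Cstf3 3' bin), -0.0261 (Pcf11 5' bin) and -0.0249 (Hmgn1 5' bin), and with DEXSeq's model without wt replicate 2 they were 0.0367 (Hnrnpll 3' bin), 0.0298 (Ptprc 3' bin), 0.0246 (Cstf3 3' bin) and -0.0245 (Pcf11 5' bin). The cause was not tested. No paired analysis was run, because the labels give embryo numbers and no replicate numbers. The replicate numbers 1 to 3 used here follow the order of the samples and only name the libraries. Some embryo numbers share their first part, both within the hnRNP L deficient group and between the groups. What that part stands for is not given in the sources used here, and every test treated the embryos as unrelated. With 3 against 2 libraries the exact test could not go below 0.2.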
